A study of Mus musculus with 6 samples.

Results

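Chemokine mRNA was examined in MLE12 cells in which Idh3α and the citrate carrier gene Slc25a1 had been silenced together. The 10 genes described here, Cxcl1, Cxcl2, Cxcl5, Cxcl10, Cxcl12, Cxcl16, Ccl2, Ccl7, Ccl20 and Cx3cl1, were taken by gene name from the 54532 genes of the deposited table. All 10 were found, and 7 of them were among the 15307 genes that passed the count filter. They were picked with earlier results of the same libraries in view, so their differences between the groups are a description. No p-value is printed for them, and the counts of calls among them given further on are not evidence of a difference.

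MLE12 is an immortalized mouse lung epithelial line made with a viral large T antigen under the control of a surfactant protein C promoter, and the labels give its strain as C57BL/6J. The 3 Ctrl shRNA libraries came from cells given lentivirus with empty vectors. The 3 Idh3α shRNA + Slc25a1 shRNA libraries, called knockdown below, came from cells given shIdh3a and shSlc25a1 lentivirus at the same time. The multiplicity of infection was 50 for each virus, so that by the labels knockdown cells received more virus in all. Both groups carried lentivirus and the infection enhancer, were given fresh medium after 16 h and were cultured for another 80 h in hydrocortisone-containing HITES medium with serum. Nothing in the labels ties the libraries to separate cultures, so the spread given here may be technical. Levels are CPM, counts scaled to the TMM-adjusted library size, and n = 3 libraries in each group unless stated.

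Chemokines are small proteins that guide leukocytes along concentration gradients. Those of the CXC family with an ELR motif, among them Cxcl1, Cxcl2 and Cxcl5, act on Cxcr2 and draw neutrophils into the airspaces, while Ccl2 and Ccl7 act on Ccr2 of monocytes. In the lung epithelium several of these genes are known to be switched on through NF-κB after TNF, IL-1 or bacterial products, and many of their transcripts are short-lived.

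The libraries held 27273502 to 28535653 counts each. Ctrl shRNA replicate 2 stood apart from the rest, with a TMM factor of 0.711 against 1.05 to 1.09 in the others, 16681 detected genes against 19902 to 23147, and 6.49% mitochondrial counts against 1.57 to 1.80%. The fold changes of the chemokines are therefore given with and without it. Idh3a was at 79.8 to 137 CPM in control and 55.5 to 58.5 CPM in knockdown libraries, a log2 fold change of -0.85 ± 0.20 (SE; edgeR adjusted p = 0.254) that was -0.60 ± 0.08 without replicate 2 (edgeR adjusted p = 0.0142). Slc25a1 was at 98.7 to 108 CPM in control and 63.0 to 69.6 CPM in knockdown libraries, a log2 fold change of -0.62 ± 0.08 (edgeR adjusted p = 0.104) and of -0.66 ± 0.07 without replicate 2 (edgeR adjusted p = 0.00649). Of the defining markers, the epithelial genes Krt19, Krt8 and Cdh1 averaged 833, 270 and 75.3 CPM over all libraries and the alveolar type 2 genes Nkx2-1, Abca3 and Sftpc 314, 130 and 47.3 CPM, whereas Krt18, Sftpa1, Sftpd, Slc34a2 and Lamp3 were at or near 0.

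Promoter sequence was looked up for the chemokine genes in RefSeq (GRCm38.p6), which gave 6 of the 10, namely Cxcl1, Cxcl2, Cxcl10, Cxcl12, Ccl20 and Cx3cl1. In the 250 bases before each RefSeq start, both strands were searched for the letters of a κB-type element, 3 G followed by any 2 bases, 3 T and 2 C. Cxcl1 held 2 matches, Cxcl2 held 2 and Ccl20 held 1, and 1.41% of the 32851 promoter windows of the same length held any. A looser form with any 3 bases between 3 G and the letters TTCC, which takes in every match of the first, was added after the sequences had been seen and occurred in 4.65% of windows. By this form Cxcl1 and Cxcl2 held 3 matches each, of which 2 in each gene lie on opposite strands of the same site, Cxcl10 held 2 and Ccl20 held 1. Of these 6 genes, only Cxcl10 had a match to the letters of an interferon-stimulated response element, TTTC repeated after any 2 bases, found in 2.98% of windows. It also held TGANTCA, the AP-1 type letters (6.75% of windows). Cx3cl1 held TATAAA immediately before its RefSeq start (12.4% of windows) and no match to the κB-type letters, and Cxcl12 held none of the letters searched. The RefSeq start of Cx3cl1, at 94772180, lies inside the gene of the deposited table, which starts at 94772009. Only 79 of its searched bases lay before that gene start, and the TATAAA match was not among them. A match of letters does not show that a factor binds there.

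The upstream bases of 4 genes are shown, cut at the gene start of the deposited table and written 5′ to 3′ on the strand of the gene, with matches to the looser κB-type and the interferon-type letters in capitals. Cxcl1 and Cxcl2 are shown because they are neighbours holding the same 10 bases at similar distances but differing widely in level, Ccl20 because of its high fold change, and Cxcl10 because it carries both kinds of match. The windows are Cxcl1 at chr5:90890995-90891240 on the plus strand, Cxcl2 at chr5:90903649-90903870 on the plus strand, Ccl20 at chr1:83116516-83116765 on the plus strand and Cxcl10 at chr5:92348890-92349139 on the minus strand, all on GRCm38.
Cxcl1: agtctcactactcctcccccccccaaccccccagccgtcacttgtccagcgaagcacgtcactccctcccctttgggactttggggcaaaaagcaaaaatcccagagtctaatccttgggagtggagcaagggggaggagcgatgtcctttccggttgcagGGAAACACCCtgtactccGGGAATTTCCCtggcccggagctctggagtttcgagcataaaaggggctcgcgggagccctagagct
Cxcl2: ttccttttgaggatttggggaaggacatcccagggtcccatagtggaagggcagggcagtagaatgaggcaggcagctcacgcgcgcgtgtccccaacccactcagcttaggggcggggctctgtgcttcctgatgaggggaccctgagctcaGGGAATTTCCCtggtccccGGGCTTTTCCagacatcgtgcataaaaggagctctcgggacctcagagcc
Ccl20: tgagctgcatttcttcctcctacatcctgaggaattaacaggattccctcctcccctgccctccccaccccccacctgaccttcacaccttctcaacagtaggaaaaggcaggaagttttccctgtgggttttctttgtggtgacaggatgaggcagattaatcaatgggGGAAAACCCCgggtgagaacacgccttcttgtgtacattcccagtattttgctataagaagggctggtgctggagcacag
Cxcl10: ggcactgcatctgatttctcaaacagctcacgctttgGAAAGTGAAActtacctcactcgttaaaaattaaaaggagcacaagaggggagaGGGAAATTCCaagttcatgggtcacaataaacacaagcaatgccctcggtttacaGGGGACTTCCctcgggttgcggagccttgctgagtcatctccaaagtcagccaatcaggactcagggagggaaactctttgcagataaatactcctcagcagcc
In Cxcl1 the bases GGGAATTTCC lay 71 to 62 bases before the RefSeq start, and in Cxcl2 the same bases lay 97 to 88 before it. Cxcl2 had GGGCTTTTCC at 78 to 69 bases before the start, and Ccl20 had GGAAAACCCC, a match on the opposite strand, at 80 to 71. The interferon-type match of Cxcl10, GAAAGTGAAA, lay further away, 213 to 204 bases before the start.

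Of Cxcl1, Cxcl2 and Cxcl5, whose products are directed at neutrophils, Cxcl1 was the 1 present at more than a few counts. Cxcl1 (ENSMUSG00000029380, chromosome 5, 90891241 to 90893115, plus strand), which encodes the KC chemokine, had 109, 201 and 170 counts in Ctrl shRNA replicates 1, 2 and 3 and 1224, 1298 and 1286 in the knockdown replicates. Scaled, these were 3.52, 10.2 and 5.93 CPM against 41.1, 42.8 and 43.4 CPM. The 3 knockdown libraries lay close together and more than 30 CPM above the highest control, which was replicate 2. The log2 fold change was 2.71 ± 0.37 (SE), or 6.54-fold, and 3.16 ± 0.18, or 8.96-fold, without replicate 2. Cxcl1 had the sixth-highest fitted log2 fold change of all genes tested, and the ninth-highest without that library.

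Cxcl2, which encodes MIP-2 and begins 12.6 kb beyond Cxcl1, had 0 counts in each control library and 2, 2 and 1 counts in the knockdown libraries. Cxcl5, the LIX chemokine gene that lung epithelium can make in quantity, likewise had 0 counts in each control library and 0, 4 and 1 in the knockdown libraries. Neither passed the filter. The 5 knockdown counts of each gene had an exact 95% interval of 1.62 to 11.7 counts, beside an exact 95% interval of 0 to 3.69 counts for the control group. These intervals cover counting error only, and their overlap is no test of a difference. With so few counts no difference was tested. Cxcl2 shares an unbroken run of 157 bases with Cxcl3 in the annotated transcripts, so reads from that stretch could not be given to either gene alone, while Cxcl1 shares no more than 23 bases with Cxcl2.

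The stretch around Cxcl1 on chromosome 5 holds a family of CXC genes. Within 200 kb of its start, Ppbp, Pf4 and Cxcl3 had 0 counts in all 6 libraries. Cxcl15, which encodes lungkine, summed to 85 control and 135 knockdown counts, with a log2 fold change of 0.40 ± 0.39 (edgeR adjusted p = 0.612) and of 0.83 ± 0.30 without replicate 2 (edgeR adjusted p = 0.184). Mthfd2l, a mitochondrial folate enzyme gene on the far side of Cxcl2, had a log2 fold change of -0.12 ± 0.24 (edgeR adjusted p = 0.825), which was 0.20 ± 0.10 without replicate 2 (edgeR adjusted p = 0.331). The high counts in this window were thus those of Cxcl1 and Mthfd2l, as the map of counts by distance shows.

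**Figure D1:**
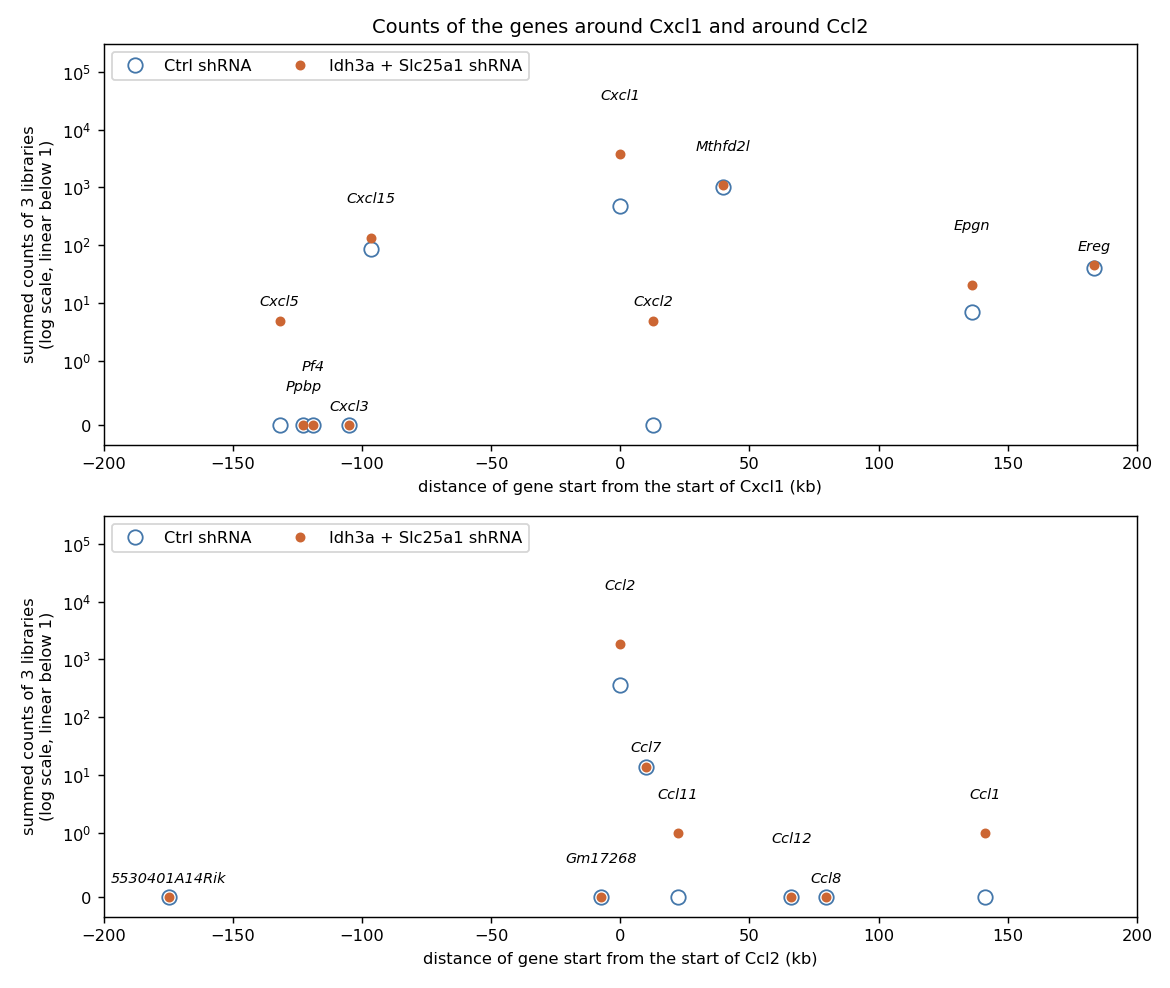
Summed counts of 3 libraries per group (vertical axis, logarithmic and linear below 1) for the protein-coding genes whose starts lie within 200 kb of the start of Cxcl1 (upper panel) or Ccl2 (lower panel), against distance in kb; open circles are Ctrl shRNA and filled circles knockdown. Cxcl1 went from 480 to 3808 counts and Ccl2 from 355 to 1831, while Cxcl2, Cxcl5 and the genes beyond Ccl7 stayed at 5 counts or fewer.

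Ccl2 and Ccl7, both ligands of Ccr2, lie next to each other on chromosome 11 and differed in level and in pattern. Ccl2 (ENSMUSG00000035385, 82035571 to 82037453, plus strand), which encodes the monocyte chemoattractant MCP-1, had 66, 196 and 93 counts in Ctrl shRNA replicates 1 to 3 and 576, 628 and 627 counts in the knockdown replicates. In CPM these were 2.13, 9.92 and 3.24 against 19.4, 20.7 and 21.1. Each knockdown library was above each control, and replicate 2 was 3.69 times the mean of the other 2 controls. The log2 fold change of Ccl2 was 2.02 ± 0.55, or 4.06-fold, and 2.92 ± 0.17, or 7.56-fold, without replicate 2. The gene overlaps Gm17268 on the other strand, which had 0 counts.

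Ccl7, which encodes MCP-3, had 1, 13 and 0 counts in the control replicates and 7, 2 and 5 in the knockdown replicates. Of its 14 control counts 13 came from replicate 2, so the groups overlapped with that library and did not without it. The sums of 14 and 14 counts gave a ratio of 0.885 after scaling, with an exact 95% counting interval of 0.391 to 2.00. Further along the same cluster Ccl11 and Ccl1 had 1 count each, in knockdown libraries, and Ccl12 and Ccl8 had none. Ccl2 shares at most 23 unbroken bases with Ccl7 and 17 with Ccl12.

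**Figure D2:**
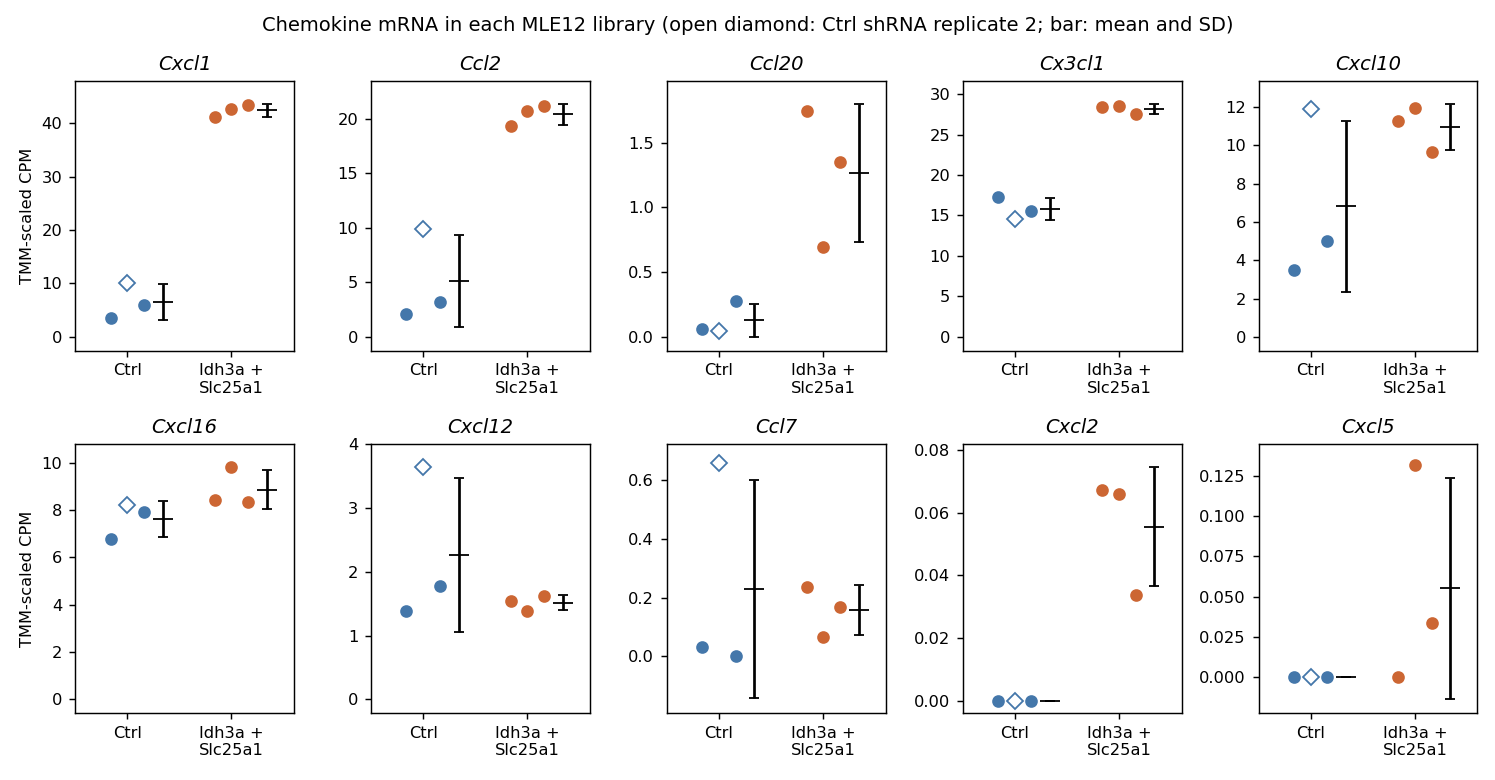
TMM-scaled CPM (vertical axis, a separate scale for each gene) of the 10 chemokines in the 3 Ctrl shRNA and 3 Idh3a + Slc25a1 shRNA libraries. Points are libraries, the open diamond is Ctrl shRNA replicate 2, and the bar gives the mean and SD; the knockdown libraries of Cxcl1 lie at 41.1 to 43.4 CPM, and in Cxcl10, Cxcl12 and Ccl7 replicate 2 is at or above the knockdown mean.

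Ccl20 (ENSMUSG00000026166, chromosome 1, 83116766 to 83119167), whose product attracts Ccr6-bearing dendritic cells and lymphocytes, was low in every library. It had 2, 1 and 8 counts in the control replicates and 52, 21 and 40 in the knockdown replicates, which is 0.0646, 0.0506 and 0.279 CPM against 1.75, 0.692 and 1.35 CPM. The groups did not overlap, and the knockdown libraries differed widely among themselves, replicate 2 being the lowest. Its log2 fold change was 3.17 ± 0.71, and 2.86 ± 0.65 without Ctrl shRNA replicate 2. The gene passed the count filter through its knockdown libraries only, so that its being tested already depended on the difference. Without Ctrl shRNA replicate 3, which held 8 of its 11 control counts, the log2 fold change was 4.31.

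Cx3cl1 and Cxcl16 encode the chemokines that are made as transmembrane proteins and shed from the cell surface. Cx3cl1 (ENSMUSG00000031778, chromosome 8, 94772009 to 94782427, plus strand), or fractalkine, the ligand of Cx3cr1, had 536, 288 and 445 control counts and 847, 866 and 816 knockdown counts. The CPM were 17.3, 14.6 and 15.5 against 28.5, 28.5 and 27.5. Here replicate 2 was the lowest control, the spread within each group was small, and the groups were well apart. The log2 fold change was 0.83 ± 0.10, or 1.78-fold, and 0.77 ± 0.09, or 1.70-fold, without replicate 2.

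Cxcl16 (ENSMUSG00000018920, chromosome 11, 70453983 to 70459984, minus strand), the ligand of Cxcr6, had 210, 162 and 227 control counts and 251, 298 and 247 knockdown counts. In CPM these were 6.78, 8.20 and 7.91 against 8.44, 9.82 and 8.33. The groups did not overlap, but the highest control, at 8.20 CPM, lay just under the lowest knockdown library, at 8.33 CPM. The log2 fold change was 0.22 ± 0.14, and 0.26 ± 0.14 without replicate 2, within 2 SE of 0 in both fits. Cxcl16 overlaps 552 bases of Zmynd15 on the other strand, a gene with 244 counts in all, and strand use in the counting is not given in the sources used here.

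Cxcl10 (ENSMUSG00000034855, chromosome 5, 92346638 to 92348889, minus strand), an interferon-inducible ligand of Cxcr3 on T cells, had 109, 235 and 144 control counts and 336, 362 and 286 knockdown counts. In CPM these were 3.52, 11.9 and 5.02 against 11.3, 11.9 and 9.64. Replicate 2 lay within the knockdown range in CPM and below it in raw counts, and the other 2 controls lay below it on both scales. The log2 fold change was 0.70 ± 0.44, and 1.35 ± 0.18 without replicate 2. Cxcl10 lies wholly inside Art3 on the other strand, for which 40 counts were listed in all 6 libraries together. Its neighbours Cxcl9, which encodes another Cxcr3 ligand, and Cxcl11, annotated as a polymorphic pseudogene, had 30 and 33 counts in all and were not tested.

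Cxcl12 (ENSMUSG00000061353, chromosome 6, 117168535 to 117181367, plus strand), the homeostatic ligand of Cxcr4, was low and showed no separation of the groups. It had 43, 72 and 51 control counts and 46, 42 and 48 knockdown counts, or 1.39, 3.64 and 1.78 CPM against 1.55, 1.38 and 1.62 CPM. Replicate 2 was again the highest library. The log2 fold change of -0.57 ± 0.40 was -0.07 ± 0.25 without it.

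**Figure D3:**
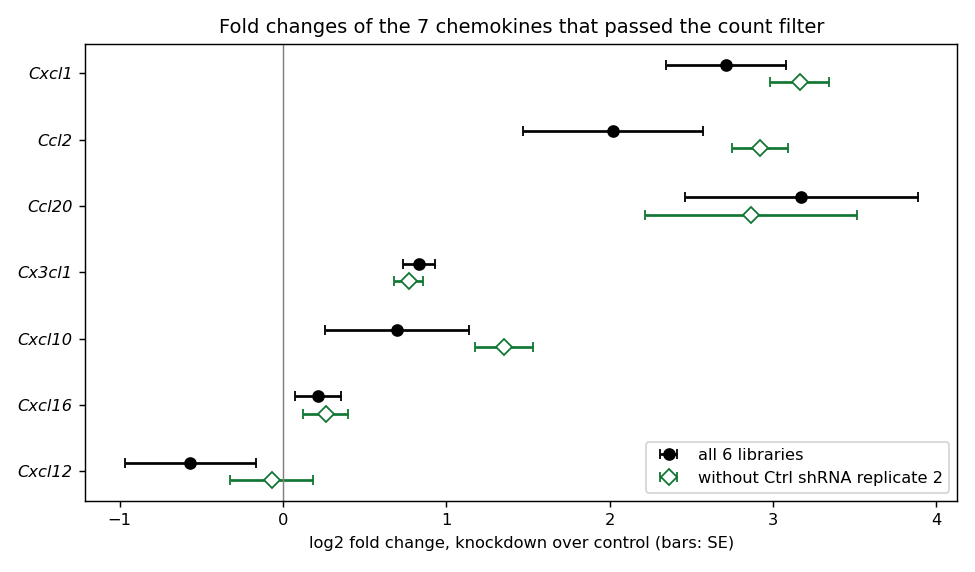
Log2 fold change of knockdown over Ctrl shRNA with its SE (horizontal axis) for the 7 chemokines that passed the count filter, in the edgeR fit to all 6 libraries (filled circles) and in the fit without Ctrl shRNA replicate 2 (open diamonds). Without that library the values of Ccl2 and Cxcl10 moved from 2.02 to 2.92 and from 0.70 to 1.35, and those of Cx3cl1 and Cxcl16 by less than 0.1.

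In the edgeR fit across all genes, 9 genes passed an adjusted p of 0.05 as higher (0.0588% of those tested) and 1 as lower (0.00653%). Of the 7 chemokines tested, 0 were among them, 4 had an unadjusted p under 0.05 and were higher, as did 7.47% of genes, and DESeq2 called 4 (Cxcl1, Ccl2, Cx3cl1 and Ccl20, the last tested in edgeR only because of its knockdown libraries), against a background of 1.58% of the 13777 genes with an adjusted p in DESeq2. Without replicate 2, edgeR called 4 chemokines higher (Cxcl1, Ccl2, Cx3cl1 and Cxcl10), against 1.11% of genes called higher and 0.675% called lower. A fitted log2 fold change of at least 1 was found for 3 of the 7 against 1.5% of genes, and for 4 without replicate 2 against 1.57%. In CPM, 5 of the 7 had all knockdown libraries above all controls, against 14.7% of genes, and 6 without replicate 2, against 20.3%. The sign was positive for 6 of 7 against 48.7% of genes, and the median log2 fold change was 0.83 against -0.0092 over all genes tested (1.35 against -0.02 without replicate 2). Since the genes were chosen on these libraries, nothing is read from these counts.

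Ctrl shRNA replicate 2 was the highest control for 5 of the 7 tested chemokines. It exceeded the mean of the other controls 3.69-fold for Ccl2, 2.79-fold for Cxcl10, 2.30-fold for Cxcl12 and 2.15-fold for Cxcl1, where 14.9% of all genes tested were at least 2-fold higher in it. For Cxcl16 the ratio was 1.12, for Cx3cl1 0.888, and for Ccl20, with 1 count, 0.295. The fibroblast marker list also stood apart in this library, with a summed level of 1235 CPM against 346 and 377 CPM in the other controls and 317 to 345 CPM in knockdown, and 23920 of its counts were those of Dcn, while Col3a1 was at 0 in all libraries. Col1a1 was at 19.7 to 22.7 CPM in control and 16.5 to 22.8 CPM in knockdown, and Pdgfra at 2.23 to 2.68 and 3.43 to 3.91 CPM (log2 fold change 0.63 ± 0.18, edgeR adjusted p = 0.312). Of the 10 immune markers, the defining genes Ptprc, Adgre1, Itgam and S100a8 had 0 counts in every library, and the list summed to 5.59 to 10.1 CPM in control and 7.08 to 7.52 CPM in knockdown. Nearly all of this was Cd14, at 3.65 to 8.15 CPM in control and 4.18 to 4.94 CPM in knockdown, and Cd68, at 1.65 to 1.92 and 2.34 to 2.73 CPM (log2 fold change 0.51 ± 0.20, edgeR adjusted p = 0.352), and replicate 2 was the highest control for both. The endothelial list summed to 37.1 to 46.8 CPM in control and 32.5 to 33.9 CPM in knockdown, nearly all of it Tek, with Cdh5 and Cldn5 at or near 0. The part that the high Dcn level and the high mitochondrial share of replicate 2 have in its chemokine levels was not tested.

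To compare levels between genes, CPM were divided by gene length in kb. In knockdown cells Cxcl1 came first at 22.6 ± 0.617 CPM per kb (SD, n = 3), followed by Ccl2 at 17.9 ± 0.817, Cx3cl1 at 7.17 ± 0.146, Cxcl10 at 4.87 ± 0.524, Cxcl16 at 2.93 ± 0.276 and Ccl20 at 0.889 ± 0.375. The libraries of each of these neighbours did not overlap. Ccl7 at 0.196 ± 0.107 and Cxcl12 at 0.185 ± 0.0147 could not be ordered, nor could Cxcl5 and Cxcl2, both at or below 0.03. In control cells no such order held among the top genes. Ccl2 at 4.48 ± 3.70, Cx3cl1 at 4.02 ± 0.354, Cxcl1 at 3.49 ± 1.80, Cxcl10 at 3.03 ± 1.98 and Cxcl16 at 2.53 ± 0.248 CPM per kb overlapped with their neighbours, and without replicate 2 Cx3cl1 came first at 4.18, ahead of Cxcl1 at 2.52.

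Summed over the 10 genes, the level was 12.2, 27.2 and 15.2 CPM per kb in Ctrl shRNA replicates 1 to 3 and 55.7, 57.7 and 57.1 in the knockdown replicates, a ratio of means of 3.12, or 4.14 without replicate 2. The composition differed as well. Cxcl1 and Ccl2 together made up 30.7, 52.1 and 39.5% of the sum in the controls and 69.9, 71.1 and 73.0% in knockdown. The mean share of Cx3cl1 was 25.2% in the controls and 12.6% in knockdown, although its own level was higher in knockdown, and its control share was 31.0% without replicate 2. In bulk RNA, more producing cells and more RNA per cell cannot be told apart.

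**Figure D4:**
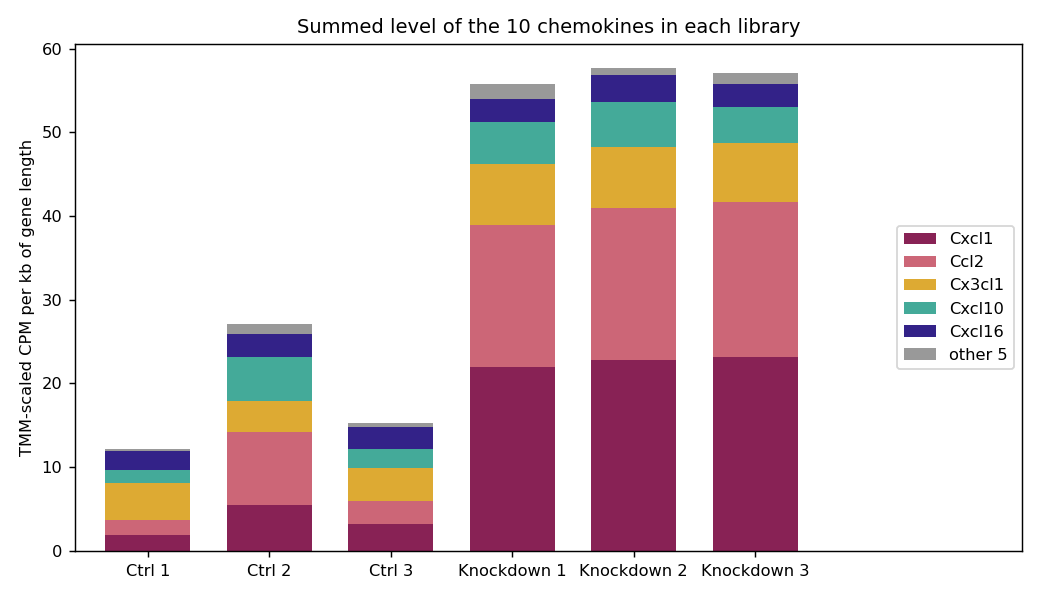
Stacked TMM-scaled CPM per kb of gene length (vertical axis) of the chemokines in each library; colours are genes, and the 5 genes of low level are pooled. The 3 knockdown libraries reach 55.7 to 57.7, the control libraries 12.2 to 27.2, and most of the knockdown bars is Cxcl1 and Ccl2.

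The genes whose profile over the 6 libraries lay nearest to that of Cxcl1 were sought by the root mean square difference of log2(CPM + 0.5), each profile being centred on its own control mean. Ccl2 was nearest at 0.458, followed by Nfkbiz at 0.734, Tnfaip3 at 0.779, Sectm1a at 0.923 and Wnt10a at 1.02. The profiles were centred but not scaled, so nearness depends on a fold change of similar size. Within the controls the patterns could differ, with Nfkbiz lowest in replicate 2, at 4.30 CPM, and Cxcl1 highest there, at 10.2 CPM. Nfkbiz encodes the nuclear NF-κB cofactor IκBζ, and Tnfaip3 encodes A20, a deubiquitinase that restrains NF-κB signaling. Over 5 libraries, without replicate 2, the same first 4 genes were followed by Mcpt1. Sectm1a was at 0.607 to 1.71 CPM in control and 5.01 to 6.59 CPM in knockdown libraries, and Wnt10a, a Wnt ligand gene, at 6.35 to 8.81 and 18.2 to 24.9 CPM.

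Of 31 other chemokine ligand genes, 14 had no count in any library and 4 were tested, of which 0 passed the threshold in edgeR, 0 had an unadjusted p under 0.05 there and 0 were called by DESeq2. The median log2 fold change of these 4 was -0.35 (-0.04 without replicate 2). Ccl25, a thymic and gut ligand, was the most abundant at 20.9 to 31.2 CPM in control and 21.4 to 22.4 CPM in knockdown. Its span on chromosome 8, from 4325210, overlaps the end of Elavl1, at 4325413, which averaged 132 CPM over all libraries. Ccl27a was at 6.78, 14.6 and 7.25 CPM in the control replicates and 6.34 to 6.86 CPM in knockdown. Ccl17, which lies beside Cx3cl1, had 9, 122 and 28 control counts and 16, 14 and 20 knockdown counts, so that its log2 fold change of -2.11 ± 1.06 (edgeR adjusted p = 0.379) was -0.18 ± 0.54 without replicate 2.

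Receptors were nearly absent from these cells. Of 19 chemokine receptor genes, 12 had no count, and Cxcr4, the receptor of Cxcl12, was the 1 tested, at 1.32, 2.94 and 0.941 CPM in control and 1.01 to 1.15 CPM in knockdown (log2 fold change -0.66 ± 0.46, edgeR adjusted p = 0.479). Without replicate 2 its log2 fold change was -0.08 ± 0.30. Of 6 atypical receptor genes, whose products bind chemokines without classical signaling, 3 were tested and 0 passed in edgeR or in DESeq2, with 2 at an unadjusted p under 0.05 (14.1% of all genes tested). Ackr3, which takes up Cxcl12, was at 6.95 to 8.96 CPM in control and 5.36 to 5.65 CPM in knockdown, a log2 fold change of -0.56 ± 0.15 (edgeR adjusted p = 0.288; -0.55 ± 0.15 without replicate 2). Ccrl2 was at 1.92 to 2.51 CPM in control and 3.02 to 3.61 CPM in knockdown (0.57 ± 0.20, edgeR adjusted p = 0.339; 0.47 ± 0.19 without replicate 2).

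The regulators of chemokine transcription were the group with genes past the threshold in the fit to all libraries. Of 19 such genes, all tested, 4 rose and 0 fell, with a median log2 fold change of 0.36 (0.34 without replicate 2), beside 0.0588% and 0.00653% of all genes tested and an all-gene median of -0.0092. This list too was written with earlier results of these libraries known, so its count is not independent evidence. Tnfaip3 rose from 20.7, 17.7 and 17.4 CPM to 66.6, 70.6 and 66.6 CPM (log2 fold change 1.87 ± 0.10, edgeR adjusted p = 0.0116). Nfkbiz rose from 5.88, 4.30 and 6.31 CPM to 21.8, 24.1 and 24.6 CPM (2.09 ± 0.17, edgeR adjusted p = 0.0249). Nfkbie and Nfkbia, which encode the inhibitors IκBε and IκBα, rose by 1.26 ± 0.10 and 0.94 ± 0.08 on the log2 scale (edgeR adjusted p = 0.0249 and 0.0273). Unlike in Cxcl1 and Ccl2, replicate 2 was not the highest control for Tnfaip3, Nfkbiz or Nfkbie. Of these 4 calls, 1 was left without Ctrl shRNA replicate 1 (Tnfaip3), and 0 were left without Ctrl shRNA replicate 3 or without knockdown replicate 1, 2 or 3, while all 4 were made without Ctrl shRNA replicate 2. With the replicate block, and with scaling by library size only, 0 of the 4 were made.

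Without replicate 2, 7 of the 19 passed as higher and 1 as lower, in a fit that called 1.11% of all genes higher and 0.675% lower. The 3 added were Bcl3 (0.98 ± 0.15, edgeR adjusted p = 0.0180), Nfkb2 (0.66 ± 0.07, edgeR adjusted p = 0.00582) and Relb (0.64 ± 0.08, edgeR adjusted p = 0.0142), all in the NF-κB family or its cofactors. Rela, Rel, Nfkb1 and Nfkbib on the same list were not called in that fit (0.35 ± 0.09, 0.34 ± 0.07, 0.08 ± 0.07 and 0.12 ± 0.11). Fos, an AP-1 subunit gene, was at 22.6 to 32.8 CPM in control and 9.34 to 12.0 CPM in knockdown and was the lower gene (-1.10 ± 0.12, edgeR adjusted p = 0.00649). Of 11 factors that act on chemokine mRNA stability, 0 passed in the fit to all libraries, with 3 at an unadjusted p under 0.05 (14.1% of all genes) and 1 called higher by DESeq2 (1.58% of the 13777 genes with an adjusted p there). This was Zc3h12a, which encodes the RNase Regnase-1 that cleaves inflammatory transcripts, at 5.69 to 6.76 CPM in control and 14.0 to 18.6 CPM in knockdown (log2 fold change 1.39 ± 0.15, edgeR adjusted p = 0.0935; 1.35 ± 0.16 and 0.00795 without replicate 2).

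**Figure D5:**
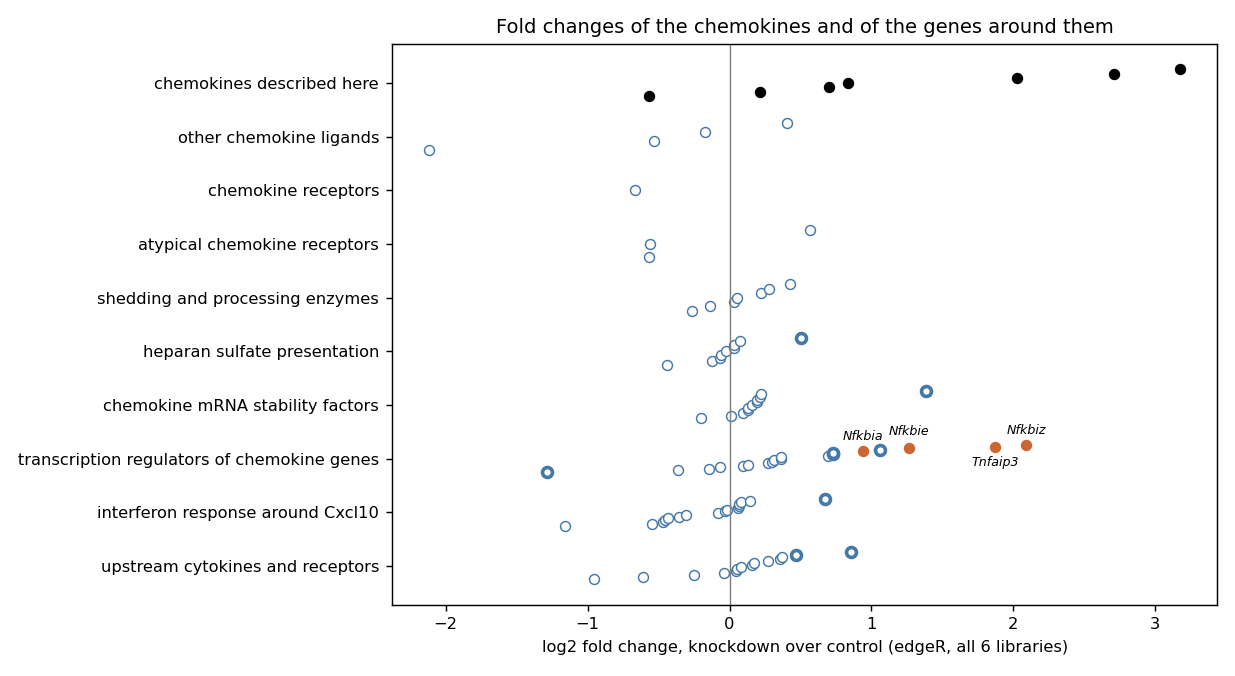
Log2 fold change of knockdown over Ctrl shRNA in the edgeR fit to all 6 libraries (horizontal axis) for every tested gene of each list (rows). Filled orange points passed an adjusted p of 0.05, open points did not, thick open points passed without Ctrl shRNA replicate 2, and black points are the chemokines described here, for which no p-value is given; the 4 genes that passed, Nfkbia, Nfkbie, Tnfaip3 and Nfkbiz, lie between 0.94 and 2.09.

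The remaining lists gave 0 calls in the fit to all 6 libraries, in which 14.1% of all genes tested had an unadjusted p under 0.05 in either direction. DESeq2 called 1.58% of the 13777 genes with an adjusted p there higher and 0.98% lower. Without Ctrl shRNA replicate 2, edgeR called 1.11% of all genes higher and 0.675% lower. Among 16 interferon-response genes 1 was higher and 2 lower at an unadjusted p under 0.05, the median log2 fold change was -0.06 (-0.11 without replicate 2), and DESeq2 called 1, Irf1, a transcription factor gene, which edgeR called only without replicate 2 (0.55 ± 0.07, adjusted p = 0.0115). Of 20 genes for upstream cytokines and receptors 14 were tested, 4 had an unadjusted p under 0.05 and DESeq2 called 2, Tlr2 and Tnfrsf1b, which encode receptors for bacterial lipoproteins and TNF. In edgeR these passed without replicate 2, with log2 fold changes of 0.77 ± 0.08 (adjusted p = 0.00656) and 0.41 ± 0.08 (adjusted p = 0.0403). Among the cytokines on this list, Tnf had 6 counts in all libraries together, Il1b 14, Il1a 43 and Il6 100. Il17a, Ifnb1 and Ifng had 0 counts. Of 10 genes for shedding and processing enzymes 7 were tested, with 3 at an unadjusted p under 0.05 and 1 higher call in DESeq2 (Rhbdf2), beside the same 1.58%. Of 9 genes for heparan sulfate, the surface sugar that holds chemokines, 2 had an unadjusted p under 0.05. DESeq2 called Sdc4 higher, as did edgeR without replicate 2 (0.41 ± 0.07, adjusted p = 0.0276), beside 1.58% and 1.11% of genes in those fits.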

How the data were processed

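RNA-seq of 6 MLE12 samples, 3 Ctrl shRNA and 3 Idh3α shRNA + Slc25a1 shRNA, was grouped by the sample labels. The authors deposited raw counts per gene and FPKM values, both by Ensembl gene. The submitters' processing notes name HISAT2 2.0.5, StringTie 1.3.3b, featureCounts 1.5.0-p3 and mm10, and the labels also name Trinity. The deposited FPKM are the counts per kb of gene length, scaled by a library size that follows the TMM one. Gene coordinates matched GENCODE M21 for all 10 genes.

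Counts were filtered with filterByExpr, scaled with TMM and tested across 15307 genes with the quasi-likelihood test of edgeR 4.0.16 (R 4.3.3), with Benjamini-Hochberg adjustment. DESeq2 1.42.0 and limma 3.58.1 were alternatives. The other alternatives were other scalings and filters, a replicate block, each library left out in turn, and, added after seeing the data, a looser motif. The scripts were tested on simulated data. An exact permutation of 3 against 3 libraries cannot go below p = 0.1. Intervals and floors cover counting error only. The members and all gene lists were chosen with earlier results of these data known. The genes named are the members, the targeted genes, list genes past an adjusted p of 0.05 with or without Ctrl shRNA replicate 2, ligands and receptors with a mean of at least 1 CPM, the 5 profiles nearest to Cxcl1, and neighbours on the chromosome. Marker lists are those of epithelial, alveolar type 2, immune, fibroblast and endothelial cells. No per-sample column was left unused. Protein sequences were not analysed here. Some items are not reported here.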

Additional observations from a re-analysis of the deposited data

How the results depend on the processing

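Counts of calls depended on the processing, while the sign of each tested chemokine did not. In edgeR 9 genes were higher and 1 lower, of which 4 higher and 0 lower were in the lists other than cell markers and 0 were among the 7 tested chemokines; the following values are given in that order. DESeq2 gave 218 and 135 genes, 14 and 1 in the lists, and 4 chemokines. DESeq2 without Ctrl shRNA replicate 2 gave 491 and 329, 16 and 2, and 4. Limma with quality weights gave 1327 and 971, 22 and 4, and 5. Scaling by library size only gave 1 and 0, 0 and 0, and 1 chemokine (Cxcl1), and moved the median log2 fold change of all genes from -0.0092 to 0.16. Without the count filter there were 12 and 3 genes, 5 and 0 in the lists, and 1 chemokine (Cxcl1). Limma on log2(FPKM + 1) gave 6 and 1, 3 and 0, and 0, and on log2(FPKM + 0.1) 5 and 1, 2 and 0, and 0. Median-of-ratios scaling and a minimum of 10 counts in every sample each gave 9 and 1, 4 and 0, and 0.

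Same-numbered libraries did not vary together, with correlations of -0.212, -0.156 and 0.021, and the replicate block gave 0 and 0 genes, 0 in the lists and 0 chemokines. Leaving out each library in turn gave 0 to 175 genes higher and 0 to 106 lower, 0 to 12 and 0 to 1 in the lists, and 0 to 4 chemokines. The highest values were those without Ctrl shRNA replicate 2. Without Ctrl shRNA replicate 1, 1 gene was higher, Tnfaip3, and without Ctrl shRNA replicate 3 or any knockdown replicate none passed in edgeR. The cause of these differences was not tested.

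Over 111 recomputed log2 fold changes of the chemokines 0 changed sign and 97 moved by less than the spread between libraries. The ranges were 2.41 to 3.17 for Cxcl1, 1.65 to 2.93 for Ccl2, 0.77 to 4.31 for Ccl20, 0.71 to 0.99 for Cx3cl1, 0.39 to 1.36 for Cxcl10, 0.14 to 0.40 for Cxcl16 and -0.82 to -0.06 for Cxcl12. The authors' FPKM put Cxcl1 at 22.7 in knockdown, against 22.6 CPM per kb.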

Other observations

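A pair of untested genes was chosen for mention after their counts had been seen. Cxcl9, which encodes another Cxcr3 ligand and lies beside Cxcl10, had 1, 0 and 2 counts in the Ctrl shRNA replicates and 10, 9 and 8 counts in the knockdown replicates, a scaled ratio of 7.96 with an exact 95% counting interval of 2.45 to 41.0. Cxcr6, which encodes the receptor of Cxcl16, had 0 counts in each control replicate and 6, 1 and 7 counts in the knockdown replicates, a sum of 14 with an exact 95% interval of 7.65 to 23.5 counts, against an exact 95% interval of 0 to 3.69 counts for the control group. Both were too low for the count filter, so neither has a test.

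Among the alveolar type 2 markers 6 of 10 were tested, with 0 calls in edgeR, 2 higher and 2 lower at an unadjusted p under 0.05 (14.1% of all genes tested, in either direction) and 1 higher call in DESeq2, Etv5 (1.58% of the 13777 genes with an adjusted p there). Without Ctrl shRNA replicate 2 the transcription factor gene Etv5 was higher (log2 fold change 0.57 ± 0.10, edgeR adjusted p = 0.0312) and Sftpc, which encodes surfactant protein C, was lower (-0.65 ± 0.12, edgeR adjusted p = 0.0438). Sftpc was at 44.1, 97.3 and 50.9 CPM in the control replicates, with replicate 2 the highest as for Cxcl1 and Ccl2, and at 27.2 to 35.9 CPM in knockdown. The epithelial, immune, fibroblast and endothelial lists had 0 calls in edgeR and in DESeq2, with 0 of 4, 1 of 2, 1 of 3 and 1 of 3 tested genes at an unadjusted p under 0.05, beside the same 14.1%.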
